A study of Mus musculus with 6 samples.

Results

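The sensors of foreign and misplaced nucleic acid described here are 10 genes, Tlr3, Ifih1, Ddx58, Dhx58, Mavs, Tmem173, Mb21d1, Zbp1, Eif2ak2 and Adar, taken by symbol from the 24062 genes of a deposited expression table. The libraries come from sorted mouse hematopoietic stem cells (HSC), the rare bone marrow cells that maintain all blood lineages. CDKO mice carried Nr4a1 fl/fl, Nr4a3-/- and Rosa26-ERt2, and control mice carried Nr4a1 fl/fl and Nr4a3-/- without Rosa26-ERt2. All mice of both groups received 4 daily tamoxifen injections of 120 mg/kg, and HSC were sorted on day 5. Each group holds 3 libraries, and each library is a pool of 3 to 5 mice. Nr4a3 was therefore deleted in the controls too, the comparison is of acute Nr4a1 excision on that background, and an effect of Rosa26-ERt2 itself cannot be told apart from that of the excision.

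Cells detect viral or misplaced nucleic acid with receptors in endosomes and in the cytosol. Tlr3 reads double-stranded RNA inside endosomes, while Ddx58 (RIG-I) and Ifih1 (MDA5) read RNA in the cytosol and signal through the mitochondrial adapter Mavs, and Mb21d1 (cGAS) reads DNA and signals through Tmem173 (STING). Many of these sensors are themselves interferon-stimulated genes, so their transcripts are part of the response that they help to start, and HSC are known to respond to interferon.

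The libraries held 32863805 to 42772261 reads in CDKO and 36464747 to 42348692 reads in control, so 3 reads, the level below which a count is not told from 0 here, correspond to 0.0701 to 0.0913 CPM (counts per 1000000 reads of the library). The targeted gene Nr4a1 had 8.52, 9.76 and 9.12 CPM in CDKO libraries 1, 2 and 3, against 15.2, 13.4 and 12.9 CPM in control libraries 1, 2 and 3. The CDKO libraries were all below the control libraries, with a log2 difference of -0.55 (limma, Benjamini-Hochberg adjusted p = 0.00204). The values cover the whole gene and do not show reads over the excised part alone. Nr4a2, the remaining family member, had 1.10, 2.72 and 3.48 CPM in CDKO libraries, against 3.81, 4.17 and 3.61 CPM in control libraries, and did not pass the test (adjusted p = 0.0547), although the groups did not overlap. It passed without CDKO library 3 (adjusted p = 0.0141), within a range of 0.0141 to 0.215 over the alternatives, and its log2 difference ran between -0.80 and -0.25 with 1 library left out. Nr4a3 had no read in any of the 6 libraries. All 13 HSC markers examined were detected and summed to 4762 to 4961 CPM in CDKO and 5215 to 5474 CPM in control, with 5 higher and 7 lower in CDKO. Markers of other cells also moved. Neutrophil markers summed to 55.0 to 199.7 CPM in CDKO and 912 to 1179 CPM in control (10 of 11 tested lower), and erythroid markers to 43.1 to 49.1 CPM in CDKO and 202.3 to 223.8 CPM in control (5 of 6 lower; Hbb-bt, Hba-a1 and Hba-a2 without a read). Mast cell and basophil markers summed to 455 to 479 CPM in CDKO and 689 to 729 CPM in control (5 of 6 lower; Cma1 and Tpsb2 without a read). Macrophage and monocyte markers summed to 95.9 to 99.4 CPM in CDKO and 74.3 to 86.7 CPM in control, with 6 of 10 higher and 3 lower. Conventional dendritic cell markers summed to 1566 to 1716 CPM in CDKO and 1167 to 1275 CPM in control. Of the 8 tested, 3 were higher, Cd74 among them, and 4 were lower, Itgax, Xcr1 and Clec9a among them. Plasmacytoid dendritic cell markers summed to 313.0 to 315.4 CPM in CDKO and 281.9 to 299.2 CPM in control. Of the 5 tested, only Bst2 was higher (log2 difference 0.86), and the other 4 were lower. T and NK cell markers summed to 89.1 to 98.4 CPM in CDKO and 58.1 to 59.9 CPM in control (4 of 5 higher; Cd3e, Cd3g and Cd8a without a read). B cell markers summed to 57.7 to 61.4 CPM in CDKO and 47.5 to 56.8 CPM in control (1 of 6 higher, 3 lower; Pax5 and Ms4a1 without a read). Megakaryocyte markers summed to 1601 to 1698 CPM in CDKO and 1609 to 1720 CPM in control (5 of 7 higher, 1 lower), and endothelial and stromal markers to 142.1 to 165.5 CPM in CDKO and 106.2 to 115.4 CPM in control (4 of 6 higher). The part of these differences in the results below was not tested, and in pooled RNA fewer cells of a type and less RNA per cell cannot be told apart.

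Most of the sensors rose. Tlr3, Ifih1, Ddx58, Dhx58, Zbp1, Eif2ak2 and Adar were higher in CDKO, Mavs was lower, and Tmem173 and Mb21d1 did not pass the test (limma on log2(CPM + 1), adjusted p under 0.05). All 10 had enough reads to be tested. Calls were common in this comparison: 66.2% of the 13732 genes tested were called, 31.1% as higher and 35.2% as lower. Of the 10 members, 7 were higher and 1 was lower, and 8 had CDKO and control libraries that did not overlap, a state shared by 70.7% of all genes tested. The total of 8 called is thus near the background, while the split was 7 higher to 1 lower among the members and nearly even over all genes. The median log2 difference was 0.68 over the 10 members and -0.02 over all genes tested. The members were chosen with earlier results of these data known, so the split and the medians are a description and not a test. Among the genes tested, 0.0655% had a difference as high as that of Tlr3 or higher, 1.86% as that of Dhx58, 2.12% as that of Zbp1, 7.31% as that of Ddx58, 8.40% as that of Adar, 11.6% as that of Ifih1 and 15.5% as that of Eif2ak2.

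**Figure D1:**
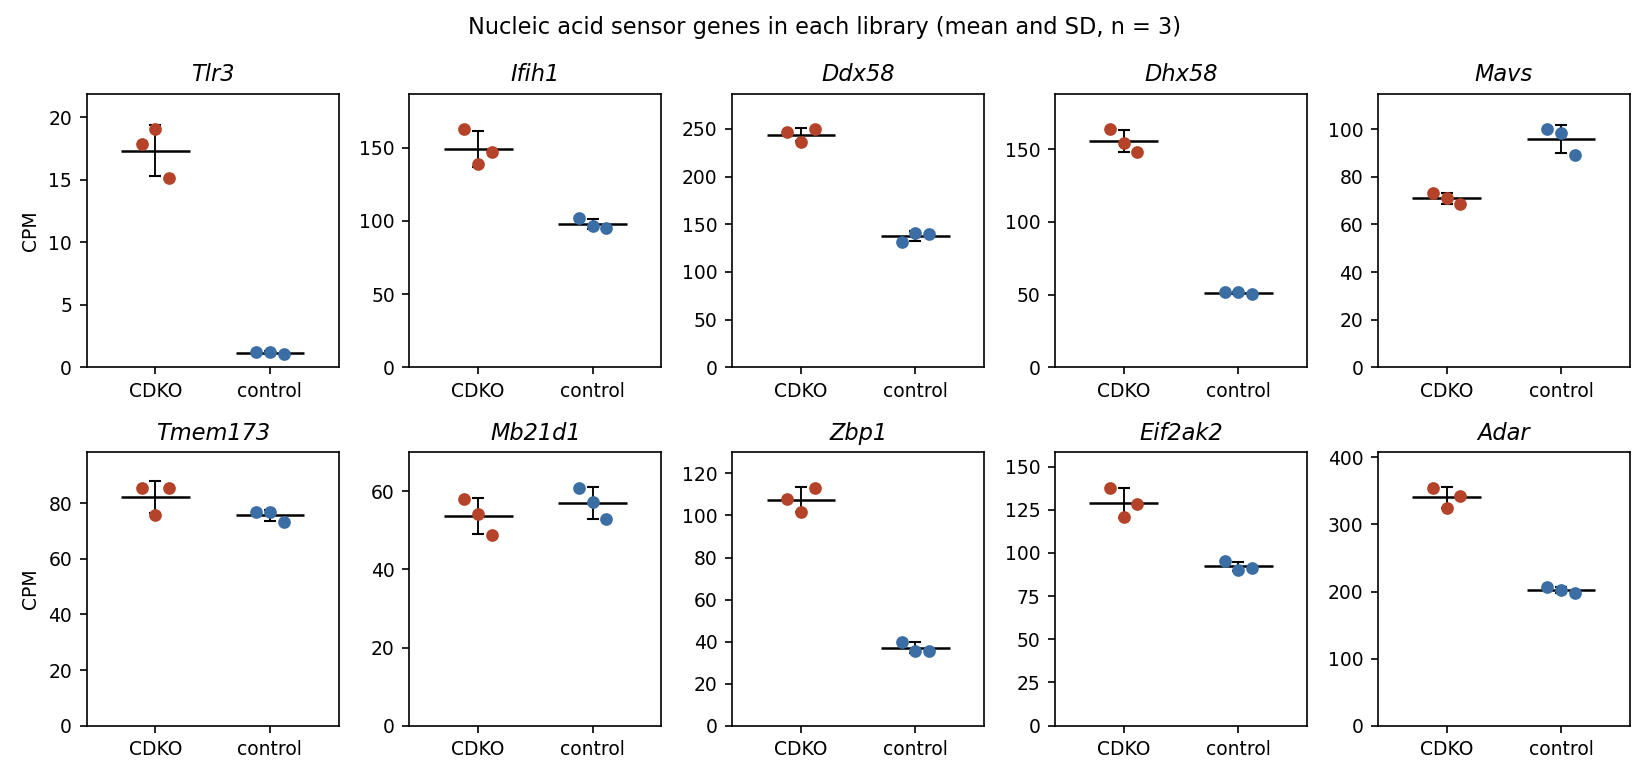
Level of each sensor gene in CPM, from 0, in the CDKO libraries (left, red) and the control libraries (right, blue); each point is 1 library, and the lines are the mean and SD of 3. The groups are apart for 8 genes, with Mavs lower in CDKO, and overlap for Tmem173 and Mb21d1.

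The core of the element that interferon-activated factors bind, the interferon-stimulated response element (ISRE), lies in the promoters of 3 members. The 30-base windows around it are shown. These 3 genes were higher in CDKO, as were Tlr3 and Adar, whose promoters hold no exact core. A part of the element in the rises was not tested. The sequences are from RefSeq on GRCm38.p6, and 7 of the 10 members have a promoter in that table, each of 250 bases before to 50 bases from the start. The core searched for, on both strands, was GAAA, any 2 bases (NN), then GAAA. Capitals mark the core; in Ddx58 it reads on the strand opposite to the gene. The Ifih1 window lies at chr2:62646206-62646235, the Ddx58 window at chr4:40239804-40239833 and the Eif2ak2 window at chr17:78882535-78882564, all on the minus strand.
Ifih1: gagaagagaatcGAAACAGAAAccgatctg
Ddx58: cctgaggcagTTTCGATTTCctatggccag
Eif2ak2: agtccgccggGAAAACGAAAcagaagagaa

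The first base of the core falls 32 bases past the start base in Ifih1, 2 in Ddx58 and 18 in Eif2ak2. The core was found in 3.443% of all 32851 promoters in the table. Of the genes tested, 10254 have a promoter in the table under the same symbol. A gene was counted if any of its promoters held the core. Of these genes 3.794% held it: 5.262% of the 3212 higher in CDKO, 3.063% of the 3624 lower and 3.189% of the 3418 not called. The core was found for 8.187% of the 513 genes that were higher by a log2 difference of 1 or more. The 3 members with the core are not in that group, with differences of 0.60 (Ifih1), 0.83 (Ddx58) and 0.48 (Eif2ak2). No exact core lies in the windows searched for Tlr3, Mavs, Mb21d1 and Adar, and Dhx58, Zbp1 and Tmem173 were not searched. None of the 7 members' promoters held the NR4A response element, which 1.507% of all promoters hold, a share so small that this absence says little. Among genes tested, 4 of the 513 higher by 1 or more held it, and 17 of the 822 lower by 1 or more. Over all 10254 genes tested with a promoter, 127 held it (1.239%). The gamma-activated site, TTC, any 3 bases, then GAA, was also searched for. It matched in Eif2ak2 and in 1 promoter of Adar, and 8.298% of all promoters hold it. A match is a run of letters and not a measured binding site.

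Tlr3, the endosomal receptor for double-stranded RNA, differed most of the 10. It had 17.9, 19.0 and 15.1 CPM in CDKO libraries, against 1.25, 1.21 and 1.04 CPM in control libraries. Every CDKO library was far above every control library, and the lowest CDKO value was in library 3. The log2 difference was 3.08 (SE 0.144, 95% interval 2.76 to 3.39, adjusted p = 8.64e-08), and the ratio of means was 14.9. The control level rests on 44 to 49 reads per library. Because 1 is added before the log, this scale understates the change of a gene this low, and the authors' deposited table, which gives control over CDKO, lists a log2 value of -3.83 (SE 0.202). The gene lies at chr8:45395665-45411080 on GRCm38.

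The 3 cytosolic RNA receptors all rose, to different degrees. Ddx58, which binds RNA with a 5′ triphosphate, had 246, 236 and 250 CPM in CDKO libraries, against 131, 140 and 140 CPM in control libraries. All CDKO values were above all control values, with a log2 difference of 0.83 (SE 0.0461, adjusted p = 1.76e-07). Ifih1, which binds long double-stranded RNA, had 163, 139 and 147 CPM in CDKO libraries, against 102, 96.3 and 95.2 CPM in control libraries. Its groups were also apart, CDKO library 1 being the highest, with a log2 difference of 0.60 (SE 0.0618, adjusted p = 7.95e-06). Dhx58 (LGP2), the relative that lacks the signalling domains of the other two and tunes them, had 164, 155 and 148 CPM in CDKO libraries, against 51.7, 51.4 and 50.3 CPM in control libraries. This was the tightest control group of the 10, with a coefficient of variation of 1.44%, and the log2 difference was 1.58 (SE 0.0543, adjusted p = 7.69e-09). The log2 ratio of Dhx58 to Ddx58 averaged -0.65 ± 0.0886 in CDKO and -1.42 ± 0.0700 in control (SD, n = 3 each), with no overlap. On GRCm38, Ddx58 lies at chr4:40203773-40239828, Ifih1 at chr2:62595798-62646255 and Dhx58 at chr11:100694884-100704271.

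Mavs (chr2:131234063-131248025), the adapter that passes on the signal of Ddx58 and Ifih1, was the only member that fell. It had 73.1, 71.2 and 68.5 CPM in CDKO libraries, against 100.05, 98.4 and 89.2 CPM in control libraries. Every CDKO library was below every control library, with a log2 difference of -0.43 (SE 0.0601, adjusted p = 7.82e-05). A difference as low as that of Mavs or lower was held by 23.4% of the genes tested, and its call was lost at 1.5-fold or more. Receptors and adapter thus moved in opposite directions, the adapter by an amount common in this comparison. With each gene's CPM divided by the length of its longest transcript, the sum of Ifih1, Ddx58 and Dhx58 over Mavs was 6.74, 6.45 and 6.82 in CDKO libraries, against 2.26, 2.33 and 2.55 in control libraries. The means were 6.67 ± 0.194 in CDKO and 2.38 ± 0.150 in control (SD, n = 3 each), a description of transcripts and not of protein. This ratio restates the calls above, includes Dhx58, which lacks the signalling domains, and depends on the length used. Without lengths, the log2 ratio of Ddx58 to Mavs averaged 1.78 in CDKO and 0.52 in control. That of Ifih1 to Mavs averaged 1.07 in CDKO and 0.03 in control.

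**Figure D2:**
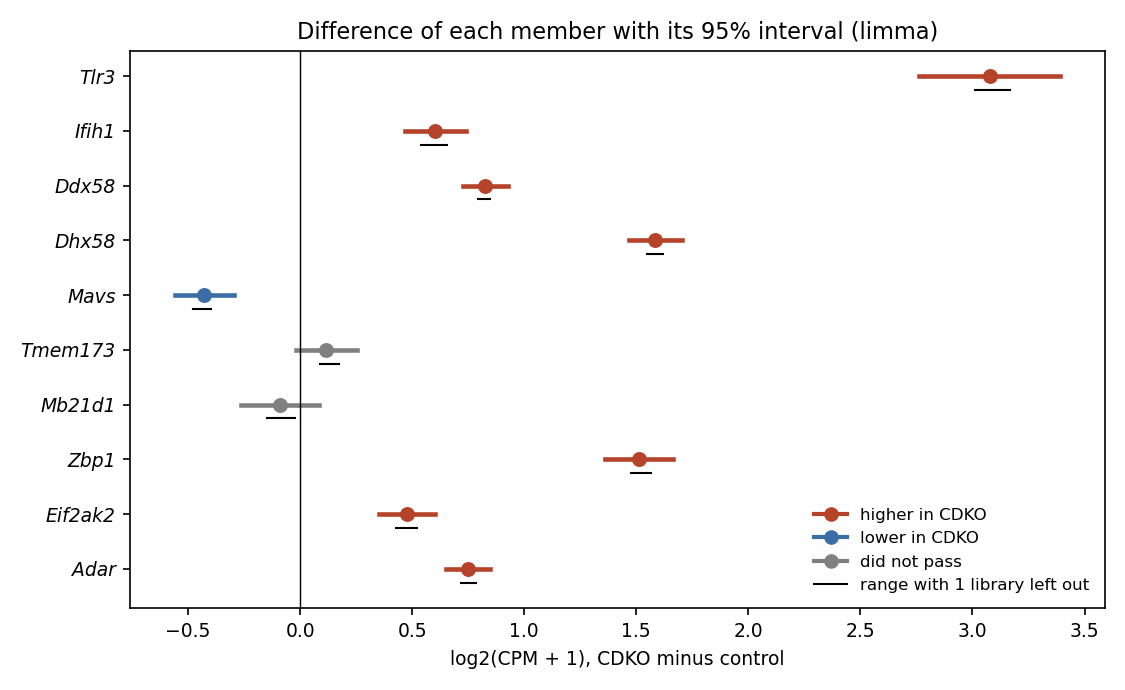
Difference of log2(CPM + 1), CDKO minus control, for each member, with the 95% interval from limma (thick line) and the range of the difference when 1 library is left out (thin line). Tlr3, Dhx58 and Zbp1 lie above 1, Mavs lies below 0, and the intervals of Tmem173 and Mb21d1 include 0.

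The DNA-sensing pair did not pass the test. Tmem173, the endoplasmic reticulum adapter that cyclic GMP-AMP activates, had 85.5, 75.7 and 85.6 CPM in CDKO libraries, against 76.7, 77.0 and 73.3 CPM in control libraries. CDKO library 2 lay within the control range, and the log2 difference was 0.12 (95% interval -0.0197 to 0.253, adjusted p = 0.118). This call is sensitive: Tmem173 passed without CDKO library 2 (adjusted p = 0.0273) and in DESeq2 on the recovered reads (0.0489), within a range of 0.0273 to 0.289 over the alternatives. Mb21d1 (chr9:78430526-78443237), the enzyme that makes cyclic GMP-AMP on binding DNA, had 57.9, 54.1 and 48.7 CPM in CDKO libraries, against 60.9, 57.3 and 52.9 CPM in control libraries. The groups overlapped, with a log2 difference of -0.09 (95% interval -0.264 to 0.0842, adjusted p = 0.336). These intervals do not show that either gene was the same in both groups.

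Zbp1 (chr2:173206612-173218923), which binds Z-form nucleic acid and can start necroptosis, had 108, 102 and 113 CPM in CDKO libraries, against 40.01, 35.6 and 35.6 CPM in control libraries. All CDKO values were above all control values, with a log2 difference of 1.51 (SE 0.0687, adjusted p = 7.63e-08). Adar (chr3:89715022-89753446), which edits adenosine to inosine in double-stranded RNA and so limits sensing of self RNA, had 355, 324 and 343 CPM in CDKO libraries, against 207, 202 and 198 CPM in control libraries. The groups were apart, with a log2 difference of 0.75 (SE 0.0452, adjusted p = 3.07e-07). Exons of Adar overlap those of Chrnb2 on the opposite strand over 1365 bases, and the library kit named in the labels is not stated to keep strand, so reads of the shared bases cannot be told apart. Chrnb2 had 3.83, 1.54 and 1.64 CPM in CDKO libraries, against 0.128, 0.494 and 0.142 CPM in control libraries, and its part in the Adar values was not tested. Shorter overlaps with exons on the opposite strand, of genes not analysed here, take 7.32% of the exon bases of Tlr3, 4.31% of Dhx58, 4.87% of Mb21d1, and 0.92% and 3.40% of Eif2ak2. Eif2ak2 (PKR; chr17:78852564-78882573), the kinase that halts translation on binding double-stranded RNA, had 138, 121 and 128 CPM in CDKO libraries, against 95.1, 90.1 and 91.3 CPM in control libraries. Its groups were apart too, with the smallest called rise, a log2 difference of 0.48 (SE 0.0574, adjusted p = 2.55e-05).

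Levels can be set side by side between genes only per length. In CDKO the order of mean CPM per kilobase of longest transcript was Dhx58 (64.5), Ddx58 (63.0), Adar (57.6), Tmem173 (35.8), Zbp1 (32.4), Eif2ak2 (29.9), Ifih1 (27.3), Mavs (23.2), Mb21d1 (13.2) and Tlr3 (3.93). In control the same level ran Ddx58 (35.4), Adar (34.2), Tmem173 (32.9), Mavs (31.4), Eif2ak2 (21.4), Dhx58 (21.2), Ifih1 (17.9), Mb21d1 (14.1), Zbp1 (11.1) and Tlr3 (0.265). The libraries of neighbours in this order overlapped in CDKO for Dhx58 and Ddx58, for Tmem173 and Zbp1, for Zbp1 and Eif2ak2, and for Eif2ak2 and Ifih1. In control they overlapped for Ddx58 and Adar, Adar and Tmem173, Tmem173 and Mavs, and Eif2ak2 and Dhx58. Dhx58 held place 1 in CDKO and place 6 in control. Using the union of all exons as the length left only 4 of the 10 genes in their CDKO place, so the order depends on which transcript is counted.

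**Figure D3:**
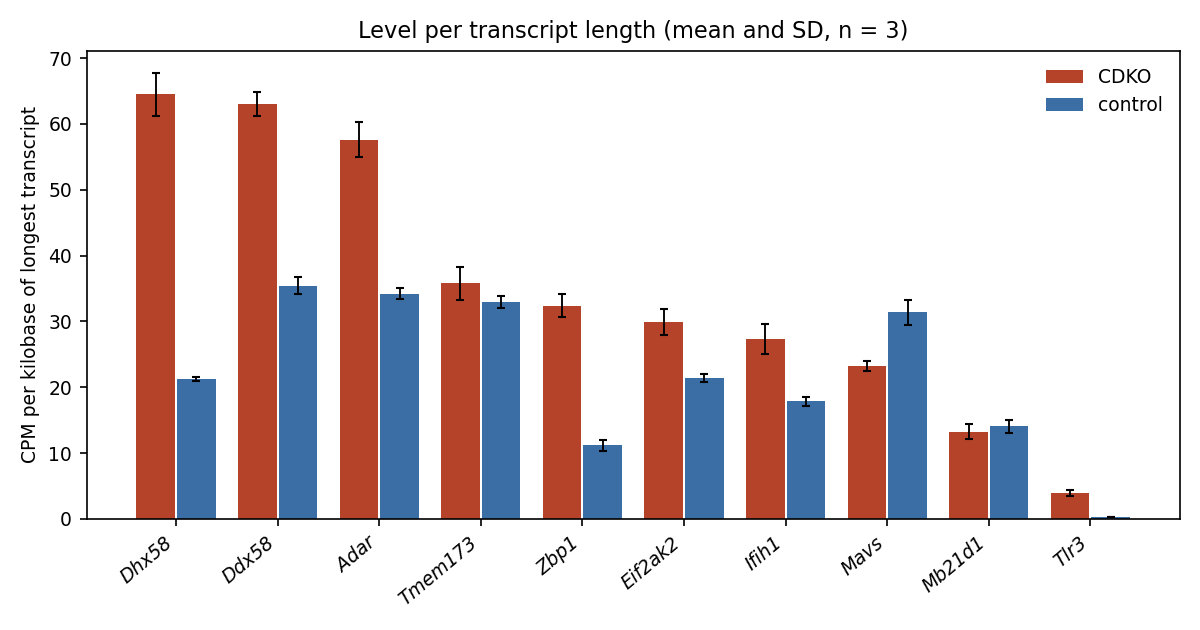
Mean level in CPM per kilobase of the longest transcript, from 0, in CDKO (left bar of each pair) and control (right bar), with the SD of 3 libraries. Dhx58 and Ddx58 are highest in CDKO at 64.5 and 63.0, Mavs is lower in CDKO, and Tlr3 is lowest in both groups.

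Within a group, the coefficient of variation ran between 2.89% (Ddx58) and 11.7% (Tlr3) in CDKO and between 1.44% (Dhx58) and 9.65% (Tlr3) in control. CDKO library 1 was the highest CDKO library for 6 members, and control library 1 the highest control library for 8. The same was not counted over all genes tested, so these counts are not a trait of the sensors. The 2 genes nearest to each member in the pattern of centred log2(CPM + 1) over all 6 libraries were found by root mean square distance. For Tlr3 these were Itga1 (0.114) and Ifit3 (0.147), for Dhx58 Oscp1 (0.0632) and Rtp4 (0.0642), and for Zbp1 Hmga2-ps1 (0.0628) and Kcna4 (0.0733). For Ddx58 they were Med9os (0.0308) and Ccl8 (0.0321), for Ifih1 Kif23 (0.0274) and 1500009L16Rik (0.0308), and for Adar P2ry2 (0.0188) and Lmnb1 (0.0223). Eif2ak2 was nearest to Metap1 (0.0193) and Trim34a (0.0259), Mavs to Ago2 (0.0244) and Stk40 (0.0298), Tmem173 to Fam169b (0.0229) and Smc3 (0.0259), and Mb21d1 to Ino80 (0.0246) and Dhx32 (0.0251). The 1 added before the log shrinks the differences of low genes, so a near pattern need not mean a like ratio. Med9os and Ccl8 averaged 0.864 and 0.780 CPM in CDKO, against 0.0778 and 0.0183 CPM in control. Itga1, Hmga2-ps1 and Kcna4 averaged 8.16, 2.29 and 1.75 CPM in CDKO, against 0.0615, 0.164 and 0 CPM in control.

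Genes of endosomal sensing other than Tlr3, which include the Myd88 route that Tlr3 does not use, moved in both directions. Of the 13 tested, 5 were higher in CDKO, 4 were lower and 4 did not pass, with a median log2 difference of 0.14, against -0.02 over all genes. Over all genes tested, the shares were 31.1% higher and 35.2% lower. Ticam1 (TRIF), the adapter of Tlr3, had 24.1, 24.6 and 29.8 CPM in CDKO libraries, against 13.7, 13.3 and 14.0 CPM in control libraries (log2 difference 0.88, adjusted p = 3.23e-05). Slc15a3, an endolysosomal transporter, had 4.41, 3.69 and 4.93 CPM in CDKO libraries, against 0.435, 0.631 and 0.496 CPM in control libraries. Irak4, a kinase of the Myd88 route, was lower in CDKO, with 17.6 ± 1.48 CPM against 28.1 ± 0.963 CPM in control (SD, n = 3 each). Irak1, its partner, averaged 269.8 CPM in CDKO and 296.5 CPM in control (log2 difference -0.14, adjusted p = 0.00742). Tlr7, Tlr8 and Rnaset2a had no read, and Tlr9 and Tlr13 had too few reads to test. The counts drop to 3 higher without CDKO library 3 or control library 3, and to 2 lower without CDKO library 1, control library 2 or control library 3.

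Around the RNA receptors, 10 of 23 tested regulators of RIG-I-like receptors and Mavs were higher in CDKO, 6 were lower and 7 did not pass, with a median of 0.09. The shares over all genes tested were 31.1% higher and 35.2% lower. Zc3hav1 (ZAP), an antiviral protein that binds RNA, had 168, 169 and 149 CPM in CDKO libraries, against 75.5, 71.9 and 71.5 CPM in control libraries (log2 difference 1.14, adjusted p = 1.18e-07). Trim25, a ubiquitin ligase that acts on RIG-I, averaged 133.6 CPM in CDKO and 93.4 CPM in control (0.51, adjusted p = 7.52e-06). Trim65, a ubiquitin ligase that acts on MDA5, was lower, with 14.5 CPM in CDKO and 25.3 CPM in control (-0.76, adjusted p = 9.74e-05). Ddx3x, an RNA helicase, was also lower (-0.40, adjusted p = 0.000145).

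Of the 20 kinases, adapters and factors that relay the sensors' signals, 9 were higher, 6 were lower and 5 did not pass, with a median of 0.09. Again, 31.1% of all genes tested were higher and 35.2% lower. Irf7, the transcription factor that amplifies interferon transcription, had 513, 463 and 490 CPM in CDKO libraries, against 108, 111 and 108 CPM in control libraries. Its libraries were far apart, with a log2 difference of 2.16 (adjusted p = 3.74e-10). Irf5 averaged 50.9 CPM in CDKO and 31.5 CPM in control (0.68, adjusted p = 6.70e-06). Traf3, an adapter between Mavs and the kinases below it, averaged 38.2 CPM in CDKO and 86.6 CPM in control (-1.16, adjusted p = 1.08e-06), and Ikbkg (NEMO) fell as well (-0.46, adjusted p = 2.60e-05).

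Around cGAS and STING, 12 of 32 tested genes were higher, 11 were lower and 9 did not pass, with a median of -0.05. For this list and the nucleases below, the background is 31.1% of all genes tested higher and 35.2% lower. Ifi204, a DNA sensor of the PYHIN family, had 11.5, 9.21 and 10.6 CPM in CDKO libraries, against 0, 0.740 and 0 CPM in control libraries. Aim2, another DNA sensor of that family, went the other way. It had 20.7, 30.2 and 22.7 CPM in CDKO libraries, against 62.1, 62.1 and 58.3 CPM in control libraries (log2 difference -1.29, limma adjusted p = 3.67e-06). Usp18, a protease that removes ISG15, averaged 151.2 CPM in CDKO and 81.8 CPM in control (log2 difference 0.88, adjusted p = 3.63e-07). Rad50 and Prkdc, which act in repair of DNA breaks, were lower, with 122.7 and 20.9 CPM in CDKO and 210.8 and 56.2 CPM in control. Among nucleases and editors that limit self nucleic acid, 6 of 16 tested were higher, 3 were lower and 7 did not pass, with a median of 0.06. Rnaseh2a, the catalytic subunit of RNase H2, averaged 84.7 CPM in CDKO and 58.4 CPM in control, and Banf1, a DNA-binding protein of the nuclear envelope, 222.5 CPM in CDKO and 174.6 CPM in control. Supv3l1, a mitochondrial RNA helicase, had 15.0, 22.6 and 22.7 CPM in CDKO libraries, against 54.1, 48.3 and 51.3 CPM in control libraries. Dnase1l3, a secreted nuclease, had 0.0609, 0 and 0.117 CPM in CDKO libraries, against 3.71, 2.28 and 1.72 CPM in control libraries.

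Among partners of Eif2ak2 and the other kinases of eIF2alpha, 6 of 19 tested were higher, 7 were lower and 6 did not pass, with a median of -0.07. Here too the background over all genes tested is 31.1% higher and 35.2% lower. The other kinases Eif2ak1, Eif2ak3 and Eif2ak4 were all among the lower. Eif2s1, the substrate that PKR phosphorylates, averaged 171.1 CPM in CDKO and 128.1 CPM in control (log2 difference 0.41, adjusted p = 4.72e-05), and Eif2b5, a subunit of the exchange factor that eIF2 needs, 122.2 CPM in CDKO and 86.5 CPM in control. Ppp1r15b, a subunit of the phosphatase that reverses that mark, averaged 107.7 CPM in CDKO and 183.2 CPM in control (-0.76, adjusted p = 9.34e-07), and Eif2ak4 (GCN2) had a log2 difference of -0.58 (adjusted p = 5.17e-05). Of 10 tested partners of Zbp1, 7 were higher, 2 were lower and 1 did not pass, with a median of 0.33, where 31.1% of all genes tested were higher and 35.2% lower. At a difference of 1.5-fold or more, 2 were higher and 0 lower. Ripk1 and Fadd, both called higher, are counted among the relay genes too. Mlkl, the executioner of necroptosis, averaged 90.2 CPM in CDKO and 50.8 CPM in control (0.82, adjusted p = 9.34e-07), and Casp8, the protease that restrains it, 223.8 CPM in CDKO and 139.7 CPM in control (0.68, adjusted p = 5.22e-07). Cflar, the partner of Casp8, was lower (-0.38, adjusted p = 0.000392). Gsdmd had a log2 difference of -0.14 (adjusted p = 0.0478), a call lost under 11 alternatives, so that 1 partner is lower without CDKO library 1, CDKO library 2, control library 2 or control library 3.

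**Figure D4:**
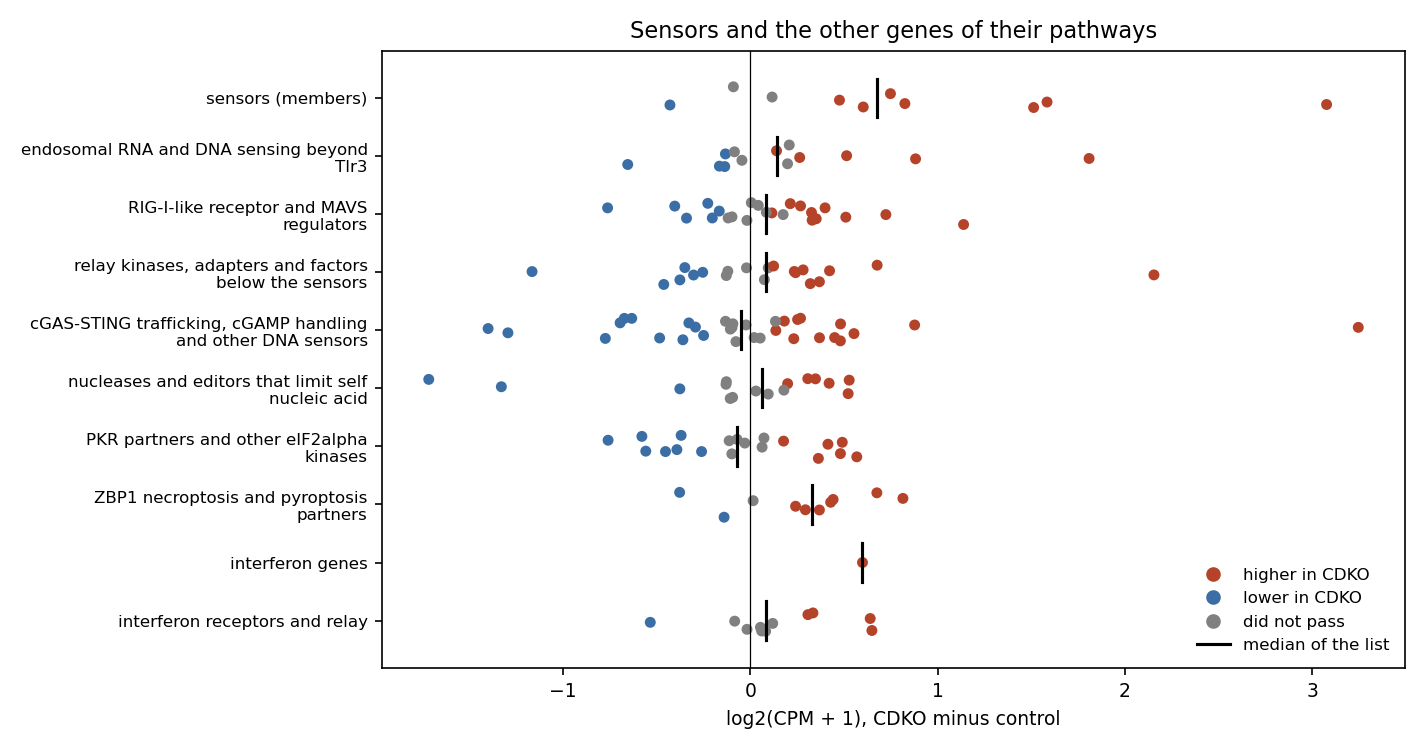
Difference of log2(CPM + 1), CDKO minus control, for every tested gene of each list, with 1 point per gene, coloured by call, and the list's median as a vertical line. The sensors have a median of 0.68, the Zbp1 partners 0.33, and the other lists of more than 1 gene lie between -0.07 and 0.14.

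Few reads were counted for the interferons themselves. Of 21 listed interferon genes, 18 had no read in any library and 2 had too few to test. Over the whole table, 7104 of 24062 genes had no read. The remaining gene, Ifnz, had 0.882, 1.13 and 0.701 CPM in CDKO libraries, against 0.230, 0.302 and 0.236 CPM in control libraries, and was called higher (adjusted p = 0.00466). Of 11 tested interferon receptors and relay genes, 4 were higher, 1 was lower and 6 did not pass, with a median of 0.08. That compares with 31.1% higher and 35.2% lower over all genes tested. Stat2, a factor of the complex that binds the ISRE, had 283, 279 and 309 CPM in CDKO libraries, against 189, 183 and 181 CPM in control libraries (log2 difference 0.65, adjusted p = 9.78e-07). Ifngr2, a subunit of the interferon gamma receptor, averaged 62.6 CPM in CDKO and 39.8 CPM in control, and the kinase Jak1 was lower, with 598.1 CPM in CDKO and 866.3 CPM in control.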

How the data were processed

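RNA was extracted on micro columns, amplified with a SMARTer Ultra Low Input kit and made into Nextera XT libraries, per the labels. TopHat2, HTSeq and DESeq2 and the build mm10 are named without versions, per the submitters' processing notes; the gene annotation is not given in the sources used here. The deposited table gives CPM per library, per the file headers, and every column summed to 1000000. It also holds the authors' mean signal per gene, log2 fold change of control over CDKO, its test score and p-values, deposited as they stand; from the authors' values only log2 fold changes, errors and adjusted p-values of members were read. Whole reads could be recovered from the CPM steps for 99.9989% of values to within 0.01 read.

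Genes with a mean of at least 10 recovered reads were tested (13732), leaving out 12 genes whose names had turned into dates and 2 rows that share a symbol. limma 3.58.1 in R 4.3.3 compared log2(CPM + 1) between the 3 CDKO and 3 control libraries with a trended prior and Benjamini-Hochberg adjustment over all genes tested, called at 0.05. edgeR 4.0.16 and DESeq2 1.42.0 on the recovered reads were alternatives. The code was tested on simulated data. Libraries are pools of mice, so p-values measure the spread between pools. Every library column was used (0 left out). The members and lists were chosen with earlier results of these data known. Some lists share genes. Ripk1 and Fadd are relay genes and Zbp1 partners. Zcchc3 and G3bp1 are in the list of RIG-I-like receptor regulators and in that around cGAS and STING. From each list, the 2 called genes with the smallest p-values in each direction are named, and Aim2, Eif2ak1 and Eif2ak3 are named besides. Lengths are from GENCODE M21 on GRCm38; promoters are from RefSeq. Precision from read number covers counting error only.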

Additional observations from a re-analysis of the deposited data

How the results depend on the processing

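Of 199 member values over the alternatives (20 for each member other than Tlr3, which a minimum of 10 CPM leaves out), 195 kept their direction and side of the threshold, 2 fell short (Mavs and Eif2ak2, both under 1.5-fold), 2 newly passed (Tmem173) and 0 reversed. Tmem173 passed without CDKO replicate 2 and in DESeq2 on the recovered reads, where the dispersion trend of the tested genes was a local fit (9506 genes called). In an alternative added after seeing the data, with the dispersion trend of all genes with a read (parametric, 8761 called), its adjusted p was 0.102 and 1 Zbp1 partner was lower. CDKO and control libraries share only replicate numbers, and same-numbered libraries did not deviate together (correlations 0.0518, 0.0483 and -0.0120); with a replicate block 9241 genes were called, against 9096 without, and no member's call changed, while Nr4a2 passed, as it did with a pseudocount of 5.

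With 1 library left out, endosomal genes numbered 3 to 5 higher and 2 to 4 lower, and Zbp1 partners 1 to 2 lower. Endosomal counts were 2 lower with no filter and in edgeR, 3 higher at a minimum of 10 CPM, and 3 higher and 2 lower at an adjusted p under 0.01. Zbp1 partners were 1 lower with no filter, TMM scaling, DESeq2 size factors, edgeR and an adjusted p under 0.01. At 1.5-fold or more, 0 members were lower; endosomal genes numbered 2 higher and 1 lower, regulators of RIG-I-like receptors 2 and 1, relay genes 2 and 1, cGAS and STING genes 2 and 6, nucleases 0 higher, PKR partners 0 and 1, Zbp1 partners 2 and 0, and interferon receptors and relay 2 and 0. Minimums of 50 reads or 10 CPM left 0 interferon genes called, since none is then tested. The order of levels kept 4 places with the union of exons, and the ISRE core was in 5 members' promoters at 1 mismatch, which 35.445% of all promoters hold. The stricter thresholds and minimums call or test fewer genes by construction; for the other settings the cause was not tested. Scaling moved the median of all genes by less than 0.1. Low read numbers limit the control level of Tlr3, and the levels of Ifi204 in control, Dnase1l3 in CDKO and the interferon genes.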
